A study of Triticum aestivum with 12 samples.

Results

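The drought response of water-sprayed wheat leaves was described from 6 of the 12 libraries of the series: the 3 drought_water libraries, from plants that received 30 ml at each of 2 waterings a week, and the 3 irrigated_water libraries, from plants that received 180 ml each time. These 6 were chosen by their labels. All plants were wild-type bread wheat (Triticum aestivum, a hexaploid whose chromosomes form the subgenomes A, B and D) of the variety Chinese Spring L42, grown in greenhouse pots that held 180 ml, and the polyA RNA of their leaves was sequenced. The leaves of these 2 groups were sprayed with water from the day after planting and again every 14 days. The other 6 libraries, drought_LRM and irrigated_LRM, came from plants under the same 2 waterings that were sprayed with the microalgal biostimulant LRM at 0.5%, and they served here as a yardstick. The sources used here do not give the age of the plants or the water status of the leaves, and nothing says that the 3 libraries of a group came from separate plants. The p-values therefore measure the spread between these libraries, part of which may be technical.

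Leaves that lose water accumulate abscisic acid, a hormone that closes the stomata and induces large sets of genes, among them those for protective proteins of the dehydrin and late-embryogenesis-abundant families and for enzymes that make osmolytes. As stress deepens, transcripts of photosynthesis and growth usually decline. This is background from plant drought biology. The identifiers in the files carry a chromosome arm but no gene name, and 0 of them had an entry in the RefSeq genes of assembly IWGSC CS RefSeq v2.1, so none of these families could be located. Nor could the leaf label be checked against marker genes. Genes are described by identifier, arm, level and change. Most wheat genes have a highly similar counterpart in each subgenome, and how the counting divided reads between such counterparts is unknown, which makes each named count uncertain to that extent.

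Total counts ran from 39432162 to 47305447 in drought_water and from 32655769 to 44596075 in irrigated_water, where replicate 1 was the shallowest. A principal component analysis used log2 CPM (counts relative to the TMM-scaled library total) of 57226 tested genes in all 12 libraries. Scores on the first component, which held 49.1% of the variance, were -91.3, -84.6 and -79.5 in drought_LRM 1, 2 and 3. They were 33.9, 47.9 and 43.0 in irrigated_LRM 1, 2 and 3. The scores were -28.1, -5.74 and 24.1 in drought_water 1, 2 and 3, and 31.0, 54.6 and 54.7 in irrigated_water 1, 2 and 3. Among the water-sprayed libraries, drought_water 3 and irrigated_water 1 thus lay next to each other on this axis, and both stood apart from the rest of their groups. Several results that rest on them are given also without one or the other.

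In a fit of all 12 libraries, far more genes were higher than lower under drought at the test's threshold. The quasi-likelihood test of edgeR called 426 genes higher (0.744% of those tested) and 49 lower (0.0856%) in drought_water than in irrigated_water, at a Benjamini-Hochberg adjusted p below 0.05, together 475 (0.830%). In bulk leaf RNA, fewer cells of a type and less RNA per cell cannot be told apart. At an unadjusted p below 0.05 the split was less lopsided, with 3870 genes higher (6.76%) and 2634 lower (4.60%), 11.4% in all. Of the called genes, 291 rose and 16 fell by at least 2-fold, and 96 rose by at least 8-fold, a size that 0 of the lower genes reached. The median log2 change was 1.23 over the genes called higher and -0.82 over those called lower, beside 0.01 over all tested genes. For 25 of the higher genes irrigated_water had 0 counts. Against a floor of 3 counts over that group they were at least 9.49-fold to at least 1058-fold higher, bounds that cover counting error only, and with these bounds the median log2 change was again 1.23. All 426 and all 49 genes separated the libraries of the groups without overlap, as did 10% of the tested genes in the higher and 8.32% in the lower direction. The number of calls rested on every library: it was 151, 164 and 971 without drought_water 1, 2 or 3, and 218, 108 and 143 without irrigated_water 1, 2 or 3. The split depended on the fit too. In the edgeR fit of the 6 water-sprayed libraries 86 genes were called higher and 29 lower, and by DESeq2 818 and 309.

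**Figure D1:**
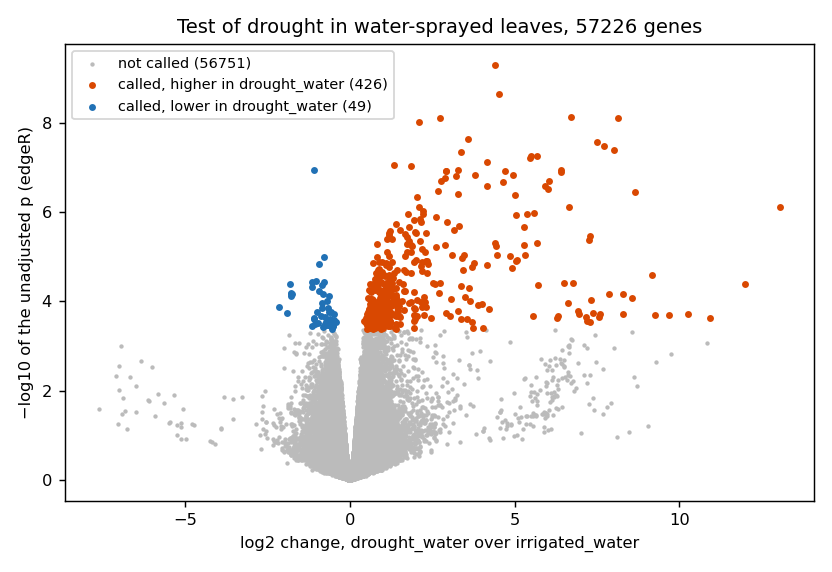
Each point is 1 of the 57226 tested genes, with the log2 change of drought_water over irrigated_water on the x axis and −log10 of the unadjusted edgeR p on the y axis (orange, called higher; blue, called lower). The 426 genes called higher extend far to the right, while the 49 called lower stay within -2.14; changes of genes with 0 counts in irrigated_water depend on the prior count of the fit and are no bounds.

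The widest gaps between the groups among genes called higher were those of a pair of transcripts on homoeologous group 3. Traes_3B_C3C710885 had 201, 116 and 34.5 CPM in drought_water 1, 2 and 3, against 0.738, 0.243 and 0.258 CPM in irrigated_water 1, 2 and 3. Its lowest drought library was thus far above its highest irrigated one, although the drought libraries themselves differed several-fold. The log2 change was 8.14 (SE 0.67, edgeR adjusted p = 9.09e-05). Traes_3DL_01383BD6A had 89.7, 52.4 and 20.1 CPM in the drought_water libraries, against 0.454, 0 and 0.355 CPM in the irrigated_water libraries. Here too drought_water 1 was highest and drought_water 3 lowest, with no overlap between groups, and the log2 change was 7.71 (SE 0.71, edgeR adjusted p = 0.000209). Per length, in drought_water 1, Traes_3DL_01383BD6A stood at 152 FPKM and Traes_3B_C3C710885 at 122 FPKM. The pair lies on chromosomes 3D and 3B, and whether the transcripts are copies of a single gene was not tested.

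Among genes that fell, Traes_4BS_3D465EE8F had the widest gap. Its levels were 9.26, 9.24 and 10.1 CPM in drought_water 1, 2 and 3, against 19.2, 21.0 and 20.6 CPM in irrigated_water 1, 2 and 3. All drought libraries were close to one another, at a fitted 0.471 times the irrigated level, so that this transcript was about as low in drought_water 3 as in the others. The log2 change was -1.09 (SE 0.11, edgeR adjusted p = 0.000304). Traes_3AS_8A727B48F behaved differently, with 5.59, 9.02 and 19.8 CPM in the drought_water libraries, against 36.8, 43.2 and 40.5 CPM in the irrigated_water libraries. It was lowest in drought_water 1 and least reduced in drought_water 3, without overlap between the groups. Its log2 change was -1.81 (SE 0.31, edgeR adjusted p = 0.0141), and the call was lost without drought_water 2 (adjusted p = 0.0940) or irrigated_water 2 or 3 (adjusted p = 0.0718 and 0.0591). It was also lost in the edgeR fit of the 6 water-sprayed libraries (adjusted p = 0.0961) and with unfiltered limma on log2(FPKM + 1) (adjusted p = 0.0600).

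**Figure D2:**
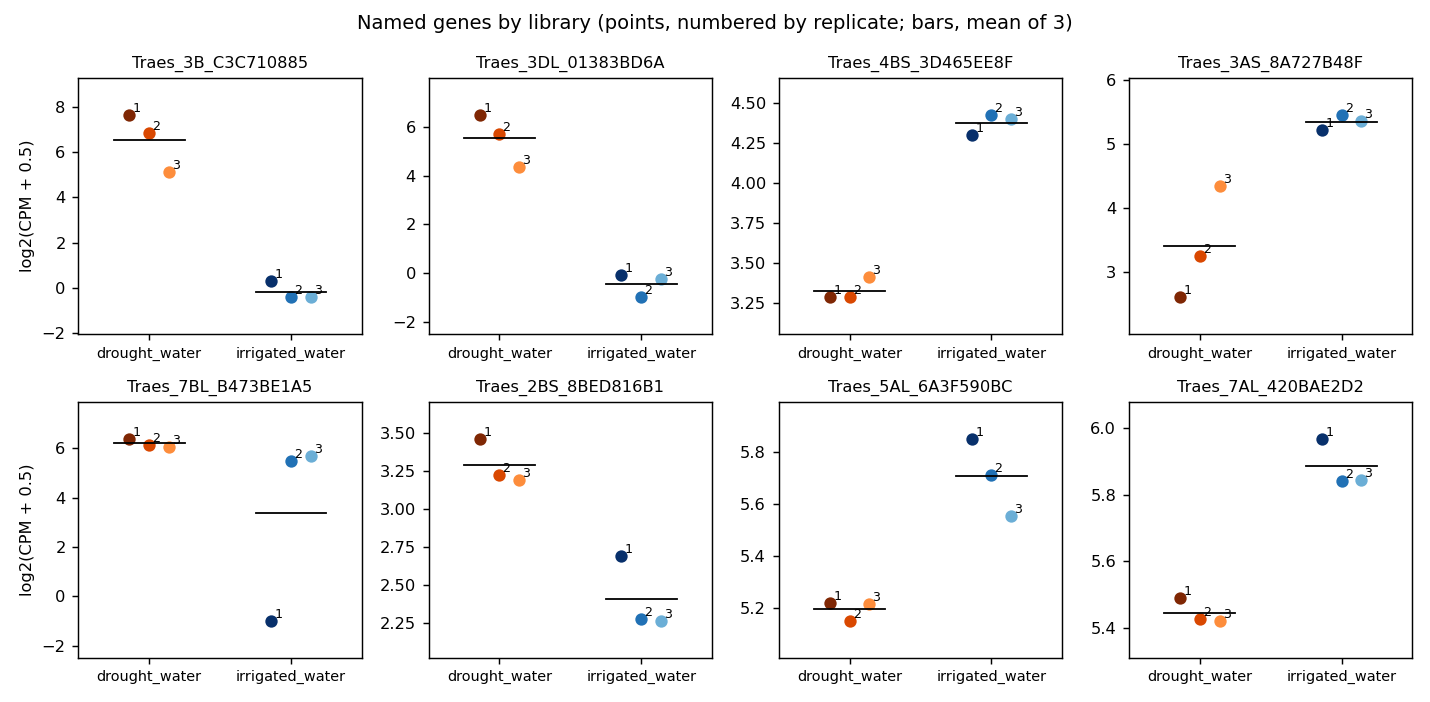
Each panel shows 1 named gene, with log2(CPM + 0.5) on the y axis, the 3 drought_water libraries left of the 3 irrigated_water libraries, points numbered by replicate and a bar at the mean; y axes differ between panels and do not start at 0. In the upper row Traes_4BS_3D465EE8F is nearly level across drought libraries while the other 3 genes spread between them, and in the lower row Traes_7BL_B473BE1A5 is set apart by 1 irrigated library with 0 CPM.

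The genes called higher mostly shared an order of the drought libraries. Among the 426 genes called higher, drought_water 1 had the highest level of the drought libraries in 379 and drought_water 3 the lowest in 398. Their median log2 distance from the irrigated_water mean was 1.46, 1.07 and 0.63 in drought_water 1, 2 and 3. Among the 49 genes called lower, drought_water 3 had the highest level in 39, while the lowest was in drought_water 1 for 25 and in drought_water 2 for 22, and the medians were -0.81, -0.85 and -0.55. Against irrigated_water 2 and 3 alone the medians were 1.47, 1.08 and 0.64 for the higher and -0.83, -0.82 and -0.56 for the lower genes. The distances describe genes that the same libraries selected and are no test.

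The spread between drought libraries was described in genes chosen from the LRM libraries, since the water-sprayed libraries themselves chose the genes called higher. Over the 2336 genes of at least 5 CPM that rose under drought with LRM, the median SD of log2(CPM + 0.5) was 0.20 among drought_water and 0.14 among irrigated_water libraries, and 67.8% of them had the wider spread under drought. Over the 2667 genes that fell the medians were 0.18 and 0.19, with 41.5% wider under drought, beside 0.12 and 0.13 with 45.5% over all 18235 genes of that level. These shares rested on single libraries. Without drought_water 3 they were 49.7% for genes that rose, 23.4% for those that fell and 35.6% for all genes. Without irrigated_water 1 they were 80.4%, 81.9% and 67.5%.

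Each drought library was also set against the irrigated_water mean on its own. Of the 18235 genes, 395 (2.17%), 201 (1.10%) and 103 (0.565%) were at least 2-fold above that mean in drought_water 1, 2 and 3, and 50 (0.274%), 45 (0.247%) and 15 (0.0823%) were at least 2-fold below. When each irrigated_water library was compared with the mean of the other 2, 40, 22 and 28 genes were at least 2-fold above in replicates 1, 2 and 3, and 176, 26 and 29 at least 2-fold below. Steps upward were thus counted more often in every drought library than in any irrigated one, and steps downward most often in irrigated_water 1. The baselines differ, since irrigated_water 1 is part of the mean set against the drought libraries and not of its own. The drought counts were not repeated without it, so its downward steps cannot be ranked against theirs.

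How far each drought library had moved was measured along a change that no water-sprayed library had entered. In the LRM-sprayed libraries alone, edgeR called 8489 genes for drought (15.6% of 54434 tested), and 5003 of these averaged 5 CPM or more over the 12 libraries, 2336 that rose and 2667 that fell. For each gene and library the log2 distance from the irrigated_water mean was divided by the log2 change with LRM, so that 0 is the irrigated level and 1 the full change of LRM-sprayed leaves. Drought_LRM libraries held out of the yardstick were set against the irrigated_LRM mean instead, on the genes called without them. Their median fractions were 0.94, 0.92 and 0.94 in replicates 1, 2 and 3. They give a rough scale only, as the irrigated_LRM mean also enters their divisor.

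By this measure the median fraction over the 5003 genes was 0.51, 0.37 and 0.08 in drought_water 1, 2 and 3, against 0.24, -0.12 and -0.13 in irrigated_water 1, 2 and 3, each irrigated library set against the mean of the other 2 irrigated libraries. The means were 0.32 ± 0.22 in drought_water and -0.0033 ± 0.21 in irrigated_water (SD, n = 3 each). Because the irrigated libraries are set against one another, their values centre near 0 by construction, and no p is given for this form. With the irrigated_LRM mean as the single baseline of all 6 libraries, a form added after the data were seen, the medians were 0.49, 0.36 and 0.07 in drought_water 1, 2 and 3, against 0.16, -0.09 and -0.10 in irrigated_water 1, 2 and 3. The groups overlapped in both forms, as irrigated_water 1 lay above drought_water 3, and the test on the single baseline gave an exact two-sided permutation p of 0.2 (n = 3 each, where 0.1 is the smallest possible). A fraction of 0.5 or more was reached by 51.0%, 30.8% and 8.04% of the genes in drought_water 1, 2 and 3, and by 27.1%, 1.46% and 2.84% in irrigated_water 1, 2 and 3.

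The library medians of the 2 groups overlapped in the genes that fell and not in those that rose. For the 2336 genes that rose with LRM the medians were 0.59, 0.38 and 0.16 in the drought_water libraries, against 0.10, -0.04 and -0.04 in the irrigated_water libraries, without overlap. The genes behind these medians did overlap. A fraction of 0.5 or more was reached by 13.7% of them in irrigated_water 1 and by 9.93% in drought_water 3. For the 2667 genes that fell they were 0.44, 0.36 and 0.01 in drought_water 1, 2 and 3, against 0.39, -0.21 and -0.22 in irrigated_water 1, 2 and 3. On the single irrigated_LRM baseline the falling genes stood at 0.42, 0.35 and -0.0087 in drought_water 1, 2 and 3, against 0.26, -0.15 and -0.16 in irrigated_water 1, 2 and 3. On either scale irrigated_water 1 was farther along in the falling genes than drought_water 3.

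**Figure D3:**
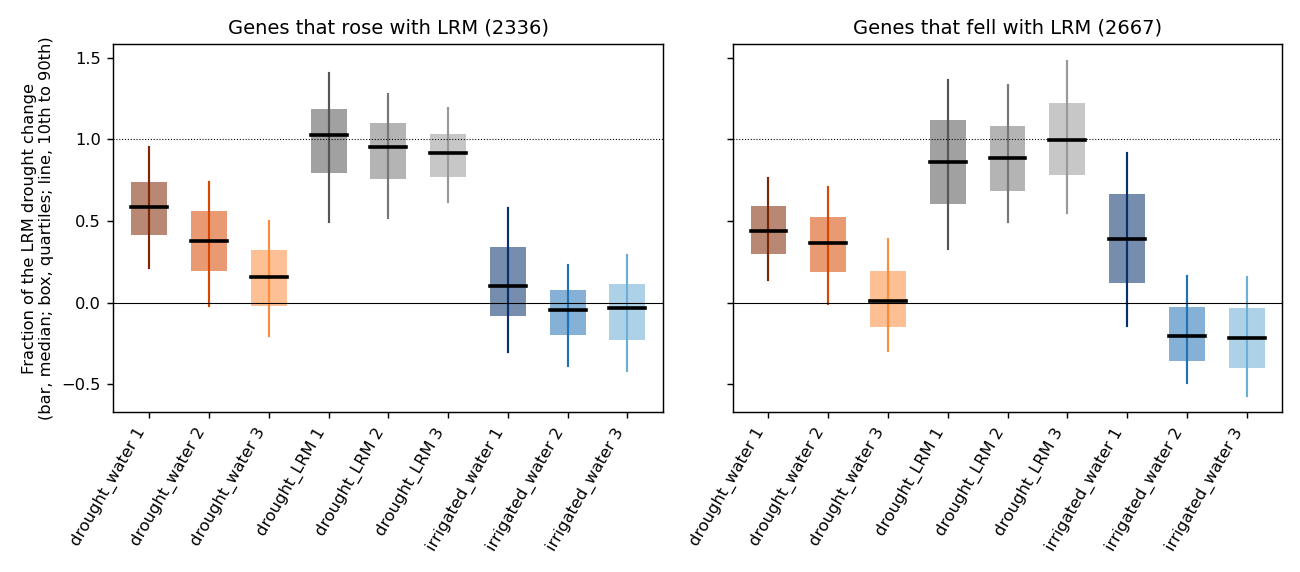
The y axis gives the fraction of the drought change of LRM-sprayed leaves, by library, for 2336 genes that rose (left) and 2667 that fell (right). Black bars are medians over genes, boxes quartiles and lines the 10th to 90th percentile. Drought_LRM libraries are held out of the yardstick, set against irrigated_LRM and shown on the genes called without them. Drought_water libraries are set against the irrigated_water mean and irrigated_water libraries against the other 2. The medians of the rising genes separate drought_water (lowest 0.16) from irrigated_water (highest 0.10), though the boxes of drought_water 3 and irrigated_water 1 overlap. Among falling genes irrigated_water 1 at 0.39 lies above drought_water 3 at 0.01.

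With irrigated_water 1 left out of the baseline, so that all other libraries were set against irrigated_water 2 and 3, the falling genes stood at 0.59, 0.50 and 0.14 in drought_water 1, 2 and 3, against 0.39 in irrigated_water 1. The rising genes then stood at 0.62, 0.42 and 0.19 in the drought_water libraries, against 0.10 in irrigated_water 1. On this baseline the falling genes of each drought library were close to its rising genes, and irrigated_water 1 still lay above drought_water 3 in the falling genes. The library irrigated_water 1 also had the largest TMM factor of the 6 libraries (1.08, against 0.910 to 1.02 in the other 5) and the lowest total count. Of the 176 genes at least 2-fold below the other irrigated libraries in it, 56 (31.8%) were among those that fell under drought with LRM, beside 14.6% of all 18235 genes. Of the 40 genes at least 2-fold above, 21 (52.5%) were among those that rose with LRM, beside 12.8% of all. Whether water status, depth or handling of that library plays a part was not tested.

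The position of irrigated_water 1 depended on transcript level. Falling genes were grouped by their median FPKM over the 12 libraries, a level per length. For the 571 genes under 5 FPKM, irrigated_water 1 stood at 0.21 against irrigated_water 2 and 3. For the 191 genes over 200 FPKM it stood at 0.78. On the same baseline drought_water 1 had 0.56 and 0.61, drought_water 2 had 0.47 and 0.57 and drought_water 3 had 0.18 and 0.15 in these 2 classes. In the most abundant falling transcripts, then, irrigated_water 1 was lower than any drought library, and the drought libraries themselves changed little with level. Among rising genes irrigated_water 1 was at 0.12 under 5 FPKM and at 0.11 over 200 FPKM. When irrigated_water 1 is part of the baseline, drought_water 3 moves with level instead, at 0.12 in the falling genes under 5 FPKM and -0.12 in those over 200 FPKM.

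**Figure D4:**
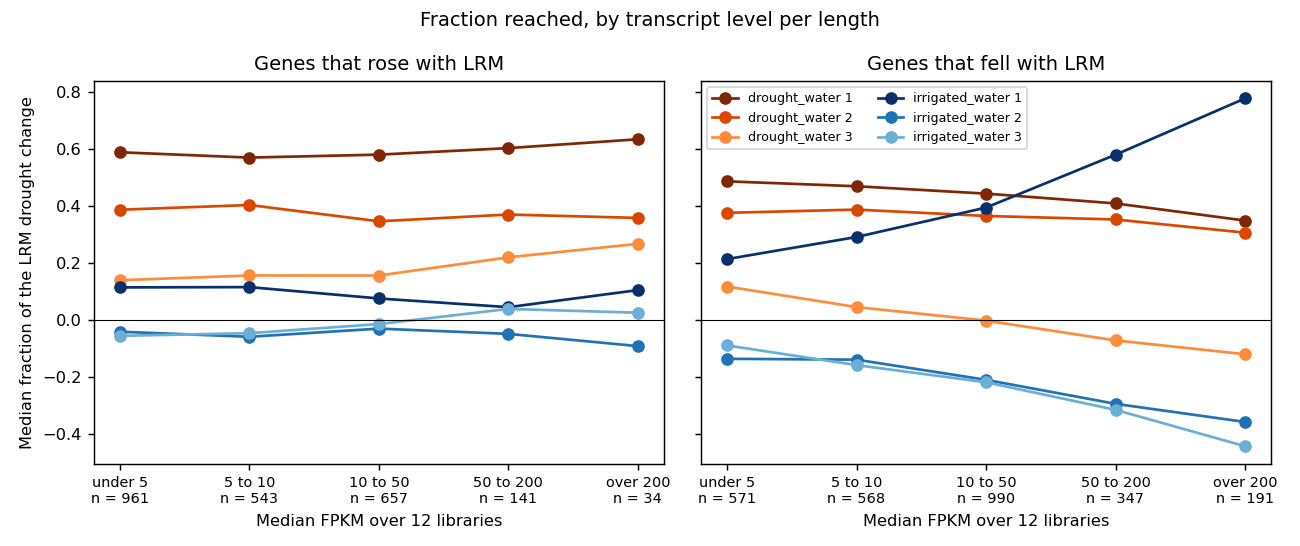
Median fraction of the LRM drought change (y axis) by class of median FPKM (x axis), with 1 line per library, for genes that rose (left) and fell (right); drought_water is set against the mean of all 3 irrigated_water libraries and each irrigated_water library against the other 2. The line of irrigated_water 1 climbs with level among falling genes and stays between 0.05 and 0.12 among rising genes.

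Among rising genes, those with the largest change in LRM-sprayed leaves were the farthest along in every drought_water library. For the 124 rising genes with an LRM change over 3 on the log2 scale the median fraction was 0.70, 0.51 and 0.27 in drought_water 1, 2 and 3, against 0.02, -0.02 and 0 in irrigated_water 1, 2 and 3. For the 493 rising genes with an LRM change under 0.5 it was 0.52, 0.39 and 0.12 in drought_water, against 0.21, -0.09 and -0.09 in irrigated_water. The held-out drought_LRM libraries 1, 2 and 3 had 1.04, 0.998 and 0.955 for the large and 0.94, 0.93 and 0.86 for the small changes, so part of this step is seen in them too. Against irrigated_water 2 and 3 alone the step was smaller, with 0.71, 0.52 and 0.28 for the large and 0.61, 0.48 and 0.18 for the small changes in drought_water 1, 2 and 3. Falling genes showed no such step between an LRM change under 0.5 (573 genes; 0.44, 0.32 and 0.02 in drought_water 1, 2 and 3) and 1 to 2 (456 genes; 0.43, 0.38 and 0.01). Larger falls were few, with 29 genes between 2 and 3 and 6 over 3.

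**Figure D5:**
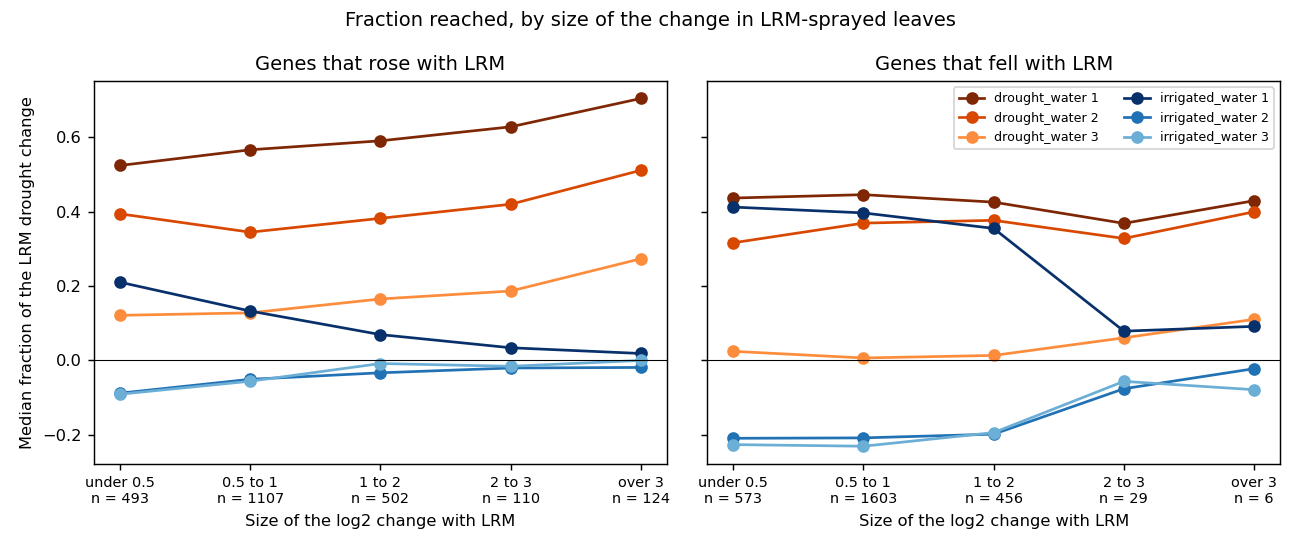
Median fraction of the LRM drought change (y axis) by the size of the log2 change in LRM-sprayed leaves (x axis), with 1 line per library, for genes that rose (left) and fell (right), on the same baselines as in the plot by FPKM. Among rising genes the 3 drought_water lines are highest in the class over 3, at 0.70, 0.51 and 0.27; among falling genes the last 2 classes hold 29 and 6 genes.

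Calls were also frequent in that class. The limit of 5 CPM was an average over all 12 libraries, drought_water included. A gene near 0 under irrigation could thus pass it through its drought levels alone. All tested genes met no such limit, so the shares set beside theirs are descriptions. Of the 124 rising genes with an LRM change over 3, 105 (84.7%) were called higher in drought_water, beside 0.744% of all tested genes, and 116 (93.5%) separated the groups without overlap, beside 10%. A fraction of 0.25 or more was present in every drought_water library in 73 (58.9%). Of the 110 with a change of 2 to 3, 66 (60%) were called and 32 (29.1%) had that fraction in every library. Of the 1107 with a change of 0.5 to 1, 24 (2.17%) were called, although 297 (26.8%) had that fraction in every library. Among falling genes with a change of 1 to 2, 8 of 456 (1.75%) were called lower, beside 0.0856% of all tested genes, and 96 (21.1%) did not overlap, beside 8.32%.

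The leaves were sampled once, so which genes change first in time was not measured. What the libraries show is which genes had a fraction of at least 0.75 in each of them, drought_water 3 included. No upper limit was set, so genes well past the full LRM change are among them. At least 0.75 of the change in each drought_water library was present in 42 of the 5003 genes (0.839%), 34 that rose and 8 that fell. In each held-out drought_LRM library it was present in 2009 of 3481 genes (57.7%), those called with each of these libraries left out in turn. Each of these libraries thus helped to choose the 3481 genes, which are not the set of 5003. The 2 shares are therefore not like for like. Under 0.25 in each drought_water library were 533 genes (10.7%), 195 that rose and 338 that fell. That count was 1447, 728 and 563 without drought_water 1, 2 or 3 and 363, 782 and 861 without irrigated_water 1, 2 or 3. The 42 genes had modest changes, with a median size of 0.50 with LRM beside 0.68 over all 5003, and 15 of them were called in drought_water, beside 0.830% of all tested genes. The libraries that make the calls also chose these 42, so the share is a description. The 42 also come from genes already called for drought with LRM, where calls with water are more frequent than among all tested genes. A small divisor makes the fraction noisy. The count of 42 was 53, 68 and 258 without drought_water 1, 2 or 3 and 79, 52 and 74 without irrigated_water 1, 2 or 3, the highest of these being without drought_water 3.

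Of the 2 rising and 2 falling genes at the head of that list, 1 of each passed the test. Traes_2BS_8BED816B1 had 10.6, 8.84 and 8.63 CPM in drought_water 1, 2 and 3, against 5.96, 4.35 and 4.30 CPM in irrigated_water 1, 2 and 3. All drought libraries were higher than all irrigated ones, with fractions of 1.87, 1.44 and 1.38 in drought_water 1, 2 and 3. The fitted log2 difference was 0.94 (SE 0.16, edgeR adjusted p = 0.0140). Its change with LRM was 0.62 (SE 0.15), the interaction had an edgeR adjusted p of 0.592, and the call was lost without drought_water 1 (adjusted p = 0.0845) or irrigated_water 2 or 3 (adjusted p = 0.102 and 0.0824). It was also lost in the edgeR fit of the 6 water-sprayed libraries (adjusted p = 0.0591) and with limma on log2(FPKM + 1), with and without a filter (adjusted p = 0.0600 and 0.138). Traes_7BL_B473BE1A5 led by fraction, at 3.37, 3.09 and 3.01 in drought_water 1, 2 and 3, with 1 control at 0. It had 83.9, 70.3 and 66.8 CPM in the drought_water libraries, against 0, 44.4 and 51.5 CPM in the irrigated_water libraries, where replicate 1 had 0 counts. Its log2 change of 1.21 (SE 0.83) did not pass the test (edgeR adjusted p = 0.657), and without irrigated_water 1 it was 0.62 (adjusted p = 0.114).

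Of the falling genes, Traes_5AL_6A3F590BC had 36.8, 35.03 and 36.7 CPM in drought_water 1, 2 and 3, against 57.2, 51.9 and 46.5 CPM in irrigated_water 1, 2 and 3. The drought libraries were nearly level and below every irrigated one. The log2 change was -0.52 (SE 0.11, edgeR adjusted p = 0.0454), beside -0.51 (SE 0.12) with LRM. This call was lost in 14 of 18 alternatives, among them the omission of any single water-sprayed library, with adjusted p up to 0.389 by edgeR, DESeq2 or limma. Traes_7AL_420BAE2D2 had 44.4, 42.5 and 42.3 CPM in drought_water, against 62.1, 56.9 and 57.0 CPM in irrigated_water, again without overlap. Its log2 change of -0.45 (SE 0.10) missed the threshold (edgeR adjusted p = 0.0729), and the change with LRM was -0.45 (SE 0.12).

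Most genes called with water were also called with LRM. Of the genes called in drought_water, 394 of 426 higher and 43 of 49 lower genes were also called in the same direction in the fit of the LRM libraries alone, which called 8.35% of its tested genes higher and 7.25% lower. The remaining 38 were all tested there, 33 had the same sign and 10 an unadjusted p below 0.05 by edgeR. Shares over all genes of that fit were not counted for either, and 15.6% of them passed even at the adjusted threshold. The 2 counts are therefore not read as a result about these 38 genes. The interaction, the change with water minus the change with LRM, passed in 65 of the 426 and 6 of the 49 genes, beside 0.851% of all tested genes (0.467% with a negative interaction). In 62 of the 65 and in 6 of the 6 the change with water was the smaller. As the interaction contains the libraries that selected these genes, the counts are descriptions. Of the 2 higher and 2 lower genes named for their gap, Traes_3AS_8A727B48F alone passed the interaction, at 2.46 (edgeR adjusted p = 0.0325), with a log2 change of -1.81 with water and -4.26 (SE 0.15) with LRM. Traes_4BS_3D465EE8F changed by -1.09 with water and by -1.34 (SE 0.14) with LRM, and its interaction had an edgeR adjusted p of 0.539.

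Some transcripts had 0 counts in every irrigated_water library. Of 18 such genes that averaged 1 CPM or more in drought_water, a choice made on these levels, 10 were called higher, beside 0.744% of all tested genes. In all of these 10 the level was highest in drought_water 1, at 1.91 to 53.9 CPM, and lowest in drought_water 3, at 0.247 to 6.57 CPM. The order did not hold in all 18. Traes_7BS_28C72CCBD, not called, had 6.34, 5.37 and 6.61 CPM in drought_water 1, 2 and 3. Traes_3AS_03F5CA04E, also not called, had 1.96, 1.04 and 1.21 CPM.

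Each subgenome held calls. Subgenomes A, B and D held 134, 151 and 141 of the genes called higher (0.719%, 0.761% and 0.752% of their tested genes) and 23, 15 and 11 of those called lower (0.123%, 0.0756% and 0.0587%, beside 0.0856% overall). By homoeologous group the share called higher ran from 0.490% in group 6 (33 of 6732) to 0.979% in group 3 (88 of 8991). By arm it ran from 0.139% on 5BS (1 of 722) to 1.51% on 3DL (24 of 1592), beside 0.744% overall. Lower calls were most frequent on 5AS, with 5 of 651 (0.768%). The most abundant called gene per length was Traes_1DL_BFD641AD9, named after its values were seen, at a median of 702 FPKM over the 12 libraries. It had 1345, 1043 and 1013 CPM in drought_water 1, 2 and 3, against 503, 626 and 849 CPM in irrigated_water 1, 2 and 3, without overlap, and its log2 difference was 0.78 (SE 0.17, edgeR adjusted p = 0.0477). The 426 higher genes had a median level of 3.31 FPKM and the 49 lower genes of 4.33 FPKM, beside 1.47 FPKM over all tested genes.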

How the data were processed

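Leaf polyA RNA of 12 libraries in 4 groups of 3 was analysed. The deposited whole-number counts per identifier and the deposited FPKM values (the unit judged from the values, as no header names it) were made by the authors. FastQC, HISAT2, StringTie and DESeq2 appear in the submitters' processing notes, without roles. The sources used here do not give versions, genome build, annotation, strand or the treatment of multiply mapped reads. Of the FPKM cells with more than 20 counts, 173 were 1000 times the value that count, total and length imply, within 10%.

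Counts of all 12 libraries were fitted with edgeR 4.0.16 (R 4.3.3; TMM, filterByExpr, 4 group means, quasi-likelihood test), which left 57226 of 99386 identifiers. The contrasts were drought_water minus irrigated_water and the interaction. Standard errors come from the F value. The yardstick was fitted in the 6 LRM libraries alone. Fractions used log2(CPM + 0.5). The scripts were tested on simulated data. Alternatives used other normalizations and filters, DESeq2 1.42.0, limma 3.58.1 on log2 FPKM, a replicate block, and omission of single libraries.

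Genes were named by rule: the 2 called higher and 2 called lower with the widest gap between groups (the higher group averaging 5 CPM or more), and the 2 rising and 2 falling yardstick genes with the largest smallest fraction over drought_water. Comparisons and rules were chosen with earlier results of these data known. Gene lists of pathways or cell types could not be applied to identifiers without names.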

Additional observations from a re-analysis of the deposited data

Results flagged for a closer look

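The drought change of Traes_3AS_8A727B48F differed between the sprays by the interaction test, with a difference of 2.46 on the log2 scale (water minus LRM, edgeR adjusted p = 0.0325). Its level was 11.5 ± 7.41 CPM in drought_water, against 40.2 ± 3.22 CPM in irrigated_water, and 2.24 CPM in drought_LRM, against 43.0 CPM in irrigated_LRM (means, with SD for n = 3).

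Of the genes called for drought with water, 71 passed the same interaction test, and the change with water was the smaller in 62 of the 65 higher and 6 of the 6 lower genes. The number of interaction calls over all genes was 487 and fell to 20 without irrigated_water 2.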

How the results depend on the processing

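The order of the drought libraries on the yardstick had drought_water 1 farthest and drought_water 3 least moved. Over all yardstick genes it was kept under each normalization, pseudocount, filter and omission tried. The difference between drought_water and irrigated_water stayed positive. With single libraries left out it was 0.230 to 0.442 over all genes, 0.261 to 0.475 over rising and 0.197 to 0.413 over falling genes. These omissions used the form in which irrigated libraries are set against one another and centre near 0 by construction. They were not repeated on the single irrigated_LRM baseline. Counts were less firm. The 475 calls became 115 in a fit of the 6 water-sprayed libraries, 1127 by DESeq2 (818 higher, 309 lower), 187 by limma on log2(FPKM + 1), 248 with a pseudocount of 0.1, 70 without the filter and 239 with the 1000-fold cells corrected (chosen after seeing the data), and 108 to 971 without single libraries. Genes called lower, 49 in the report, numbered 3 to 180 without single libraries, 26 with library totals and 87 among genes of at least 5 CPM. The 487 interaction calls became 861 at a mean of at least 5 CPM, 1748 by DESeq2 and 20 to 1279 without single libraries. The 42 genes at a fraction of at least 0.75 in every drought library became 72 with library totals, 15 at a mean of at least 20 CPM, 268 at a fraction of 0.5, and 52 to 258 without single libraries. The 533 genes that stayed under 0.25 in every drought library became 238 at a mean of at least 20 CPM, 2076 at a limit of 0.5 and 363 to 1447 without single libraries. Traes_3B_C3C710885, Traes_3DL_01383BD6A and Traes_4BS_3D465EE8F kept their calls in 18 of 18 alternatives, where the largest adjusted p of edgeR, DESeq2 and limma was 0.00908, and Traes_7AL_420BAE2D2 gained one in 2 of 18. The cause of these shifts was not tested. With the replicate number as a block there were 503 drought calls and 811 interaction calls. The labels do not say whether the numbers pair the libraries. Same-numbered deviations from the group means correlated with r = 0.34, -0.24 and 0.38 across genes for numbers 1, 2 and 3. The best match of drought_water 2 was irrigated_water 1. As deviations from a common mean depend on one another, these correlations cannot decide it. Replicates within drought_water and within irrigated_water differed by more than counting noise (chi-square per degree of freedom of 4.16 to 19.5), so each was counted as its own library.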
